A study of Homo sapiens with 6 samples.

Results

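The ATP-binding cassette (ABC) transporter genes were taken as the rows of the deposited count table named ABC, a subfamily letter from A to G and a number, which gave 42 of the 33451 genes listed there. MDA-MB-453, an established human breast cancer line, was exposed for 5 days to 100 nM 25(OH)D, a circulating form of vitamin D, or to its alcohol solvent as control, and the labels name no genetic change. Messenger RNA was sequenced from 3 stranded libraries a group, and the reads counted on genes totalled between 33268860 and 40928176 a library. The study's methods call for biological replicates of its mRNA-seq, but neither they nor the labels say whether these libraries came from separate cultures, so p-values measure the spread between these samples, at 1 dose and 1 time in 1 line. In GENCODE 29, 41 of the 42 are protein-coding genes and 1, ABCC13, is a transcribed pseudogene. Rows with further letters after the number, most of them pseudogenes, and 3 ABC proteins with other names, TAP1, TAP2 and CFTR, fall outside the rule.

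ABC proteins bind and hydrolyse ATP in paired nucleotide-binding domains, and most of them use that energy to move lipids, peptides, conjugated drugs or metabolites across a membrane. Subfamily A holds lipid transporters, B and C hold drug, peptide, mitochondrial and conjugate exporters, D serves peroxisomes and lysosomes, and G holds sterol and drug exporters. Proteins of subfamilies E and F lack membrane domains and act on ribosomes.

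Promoter windows of RefSeq (GRCh38.p14) were on hand for 32 of the 42 genes, in 49 windows. Genes without a window include ABCA4 and ABCC8, the tested ABC genes that rose furthest, and also ABCC3, ABCC1 and ABCG1. The 250 bases before a transcript start are shown for ABCD3 and ABCC4, which rose and fell furthest among the genes with a window, and for the adjacent genes ABCC11 and ABCC12, which both rose. Of the 3 windows each of ABCC11 and ABCC12, the one with a match is shown. Capitals mark the core hexamer bound by many nuclear receptors, searched on both strands as AGGTCA or the variants spelled GGGTCA or else AGTTCA or lastly GGTTCA. Each window reads 5′ to 3′ on the strand of its gene.
ABCD3, chr1:94418139-94418388, plus strand: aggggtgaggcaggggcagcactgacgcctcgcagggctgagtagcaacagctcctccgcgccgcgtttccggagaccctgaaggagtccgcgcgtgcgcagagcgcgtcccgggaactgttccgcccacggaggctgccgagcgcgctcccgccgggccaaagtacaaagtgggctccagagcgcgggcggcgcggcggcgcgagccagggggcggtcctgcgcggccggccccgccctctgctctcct
ABCC4, chr13:95301452-95301701, minus strand: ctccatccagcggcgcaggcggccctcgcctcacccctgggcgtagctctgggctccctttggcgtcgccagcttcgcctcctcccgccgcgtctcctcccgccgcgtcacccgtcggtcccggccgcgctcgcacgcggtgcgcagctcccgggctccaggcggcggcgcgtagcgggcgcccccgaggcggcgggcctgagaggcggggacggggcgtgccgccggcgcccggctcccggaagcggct
ABCC11, chr16:48247540-48247789, minus strand: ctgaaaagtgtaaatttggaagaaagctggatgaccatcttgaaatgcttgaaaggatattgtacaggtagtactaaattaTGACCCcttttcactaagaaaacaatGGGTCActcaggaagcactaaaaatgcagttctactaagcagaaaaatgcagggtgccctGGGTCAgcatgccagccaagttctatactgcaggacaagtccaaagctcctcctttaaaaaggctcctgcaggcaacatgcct
ABCC12, chr16:48146475-48146724, minus strand: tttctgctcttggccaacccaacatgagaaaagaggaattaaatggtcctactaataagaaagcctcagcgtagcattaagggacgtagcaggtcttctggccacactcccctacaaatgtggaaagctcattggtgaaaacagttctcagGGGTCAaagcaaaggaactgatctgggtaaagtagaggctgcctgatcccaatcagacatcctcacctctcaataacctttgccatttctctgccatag
The ABCC11 window held 3 of the hexamers, whose first bases lay 169, 143 and 83 bases before the start, and the ABCC12 window held 1, at 99 bases, and all were GGGTCA or its reverse complement. The windows of ABCD3 and ABCC4 held 0, as did the other windows of ABCC11 and ABCC12. The ABCC12 window shown lies inside the span of the gene, and the window at its outer start (chr16:48155994-48156243) held 0. As windows of ABCC11 and ABCC12 were picked for a match, these counts do not compare the genes. At least 1 hexamer stood in 19 of the 49 windows of ABC genes (38.8%) and in 33.8% of all 35116 windows of this length. A direct repeat with 3 bases between hexamers, the usual element of the vitamin D receptor, stood in 0 of the 49 windows. It stood in 23 of all 35116 windows (0.0655%), and at so low a share 49 windows cannot set ABC genes apart from others. These are matches of letters in short windows and say nothing about binding.

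Levels are given as CPM (counts per megaread of TMM-scaled library size) between libraries and as RPKM (reads per kilobase of exon and megaread, with unscaled library totals) between genes, and values after ± are the SD over n = 3 libraries. Log2FC is the log2 fold change of 25(OH)D over control with its standard error (SE), and a gene was called at an adjusted p under 0.05 in the quasi-likelihood test of edgeR, with p-values adjusted by Benjamini-Hochberg over 18183 genes. Positions are those of GRCh38 in the count table. The line's own genes were present, with ERBB2 between 348 and 416 CPM and KRT8 between 1636 and 1869 CPM. ERBB2 (log2FC 0.22), KRT8 (log2FC 0.14), KRT18 (log2FC 0.10) and SPDEF (log2FC 0.40) were higher in 25(OH)D, while the luminal genes GATA3 (log2FC -0.80), XBP1 (log2FC -0.55), FOXA1 (log2FC -0.46) and KRT19 (log2FC -0.41) were lower, each of them called and without overlap. TFAP2B was not called (log2FC -0.011). ESR1 was at most 0.109 CPM. Of genes marking blood, endothelial and fibroblast cells, PTPRC, CD3E, PECAM1, VWF, PDGFRB and COL1A2 were at most 0.435 CPM, while CD68 was 4.01, 5.58 and 5.21 CPM in control and 15.4, 12.95 and 19.3 CPM in 25(OH)D and COL1A1 was 38.5, 38.1 and 35.9 CPM in control and 31.97, 33.03 and 34.3 CPM in 25(OH)D. Mitochondrial genes took between 7.85% and 7.99% of the control reads and between 8.89% and 9.24% of the 25(OH)D reads. The part of these shifts in the results was not tested.

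Of the 42 genes, 30 passed the low-count filter, of which 13 were higher in 25(OH)D, 5 were lower and 12 did not pass the test. Over all genes tested, 33.8% were called, 17.3% higher and 16.5% lower, against 18 of the 30 genes, 43.3% higher and 16.7% lower. The median log2FC was 0.15 for the 30 genes and -0.011 for all genes tested, whose quartiles were -0.23 and 0.22. The CPM of the groups did not overlap in 19 of the 30 genes (63.3%), against 45.7% of all genes tested. At the limits the study used, an absolute log2FC over 1 with an unadjusted p under 0.05, 5 genes were higher (ABCA4, ABCA10, ABCC3, ABCC8 and ABCD3) and 1 was lower (ABCC4), where 6.65% of all genes passed, 4.02% higher and 2.63% lower. ABCA10 and ABCC8 reached the filter's minimum in all 3 libraries of 25(OH)D but not in all 3 of control, so they passed through the group where they were higher, and counts over the 30 genes are a description.

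**Figure D1:**
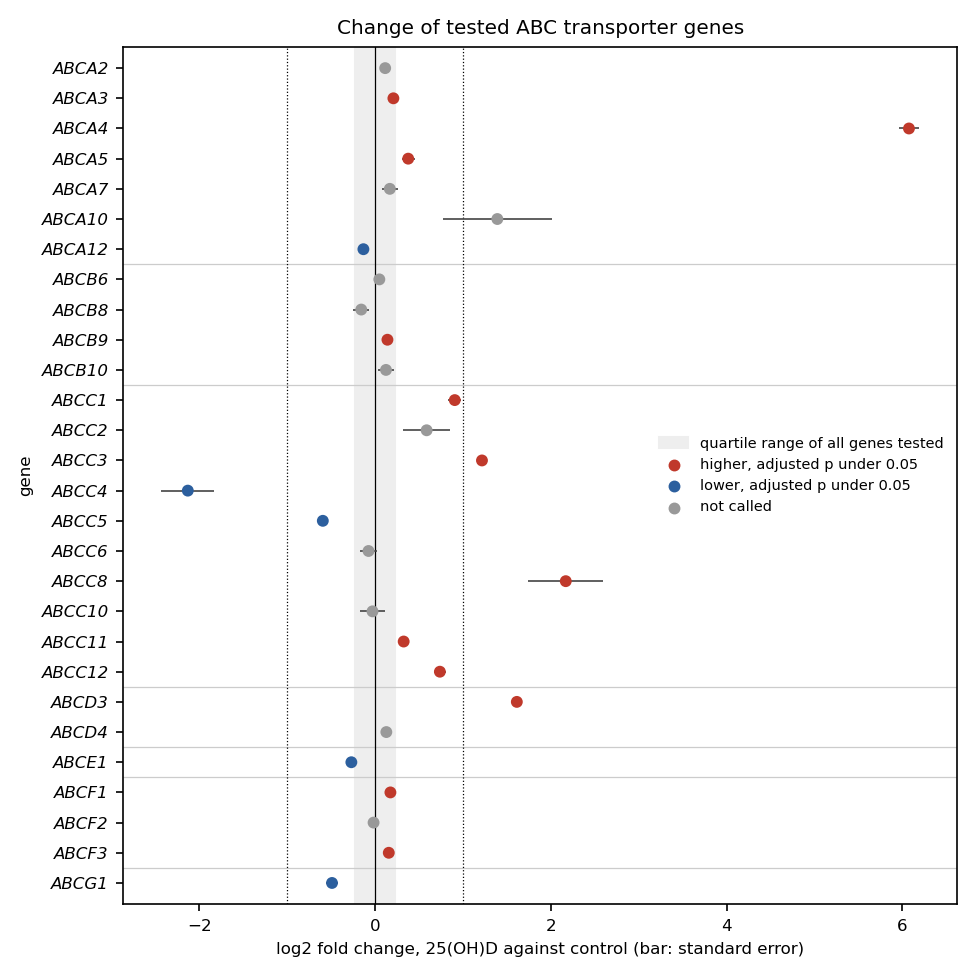
Log2FC of 25(OH)D over control for tested ABC genes by subfamily, with SE bars, red for higher, blue for lower and grey for not called, the quartile range of all genes tested as a grey band and the fold limit as dotted lines. ABCA4 stood highest at 6.08, followed by ABCC8 at 2.17 and ABCD3 at 1.61, and ABCC4 stood lowest at -2.13.

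Per kilobase, the family was led in control by ABCF1 at 96.8 ± 4.49 RPKM, ABCC11 at 56.3 ± 1.39 RPKM, ABCC5 at 27.3 ± 1.05 RPKM and ABCA3 at 23.8 ± 1.19 RPKM. The ranges of these 4 did not meet. ABCB9 overlapped ABCE1, both between 11.96 and 13.00 RPKM. ABCF1 (106 ± 3.19 RPKM) and ABCC11 (68.5 ± 1.69 RPKM) also led in 25(OH)D. ABCD3 moved from place 11 to place 6 and ABCC3 from place 14 to place 11, while ABCC5 moved from place 3 to place 8. In 25(OH)D the neighbours ABCF3, ABCD3, ABCF2 and ABCC5 shared the range between 16.5 and 19.3 RPKM.

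**Figure D2:**
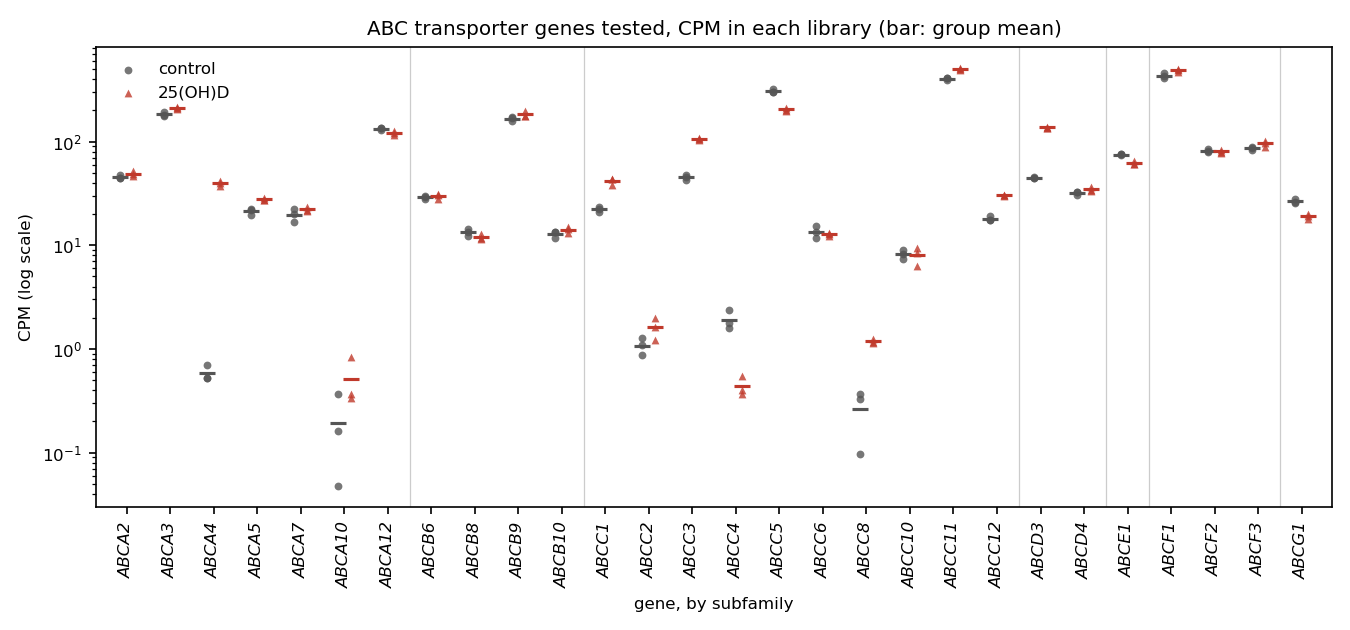
CPM on a log axis in each library for tested ABC genes by subfamily, with circles for control, triangles for 25(OH)D and bars for group means. The 25(OH)D libraries of ABCA4, ABCC3, ABCC1 and ABCD3 lie above all control libraries, and those of ABCC4, ABCC5 and ABCG1 lie below.

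Subfamily A, the lipid transporters, held the largest change of the family. ABCA4 (chromosome 1, 93992835 to 94121132, minus strand), which in photoreceptors clears retinal adducts of phosphatidylethanolamine, had 22, 20 and 26 reads in control and 1322, 1593 and 1304 in 25(OH)D. Every 25(OH)D library stood far over every control library. ABCA4 rose from 0.588 ± 0.103 to 39.7 ± 1.93 CPM, or 67.4-fold (log2FC 6.08, SE 0.115, adjusted p = 4.27e-14), and its log2FC lay between 6.01 and 6.23 with each library left out in turn. Per kilobase it went from 0.0727 ± 0.0123 to 4.76 ± 0.256 RPKM, from place 28 to place 16, next to ABCA2.

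Of the other genes of subfamily A, ABCA3 and ABCA5 rose and ABCA12 fell. ABCA3 (chromosome 16, 2275881 to 2340746, minus strand), which loads surfactant phospholipids into lamellar bodies of the lung, had 192, 182 and 175 CPM in control and 215, 213 and 207 CPM in 25(OH)D. The groups did not overlap (log2FC 0.21, SE 0.0425, adjusted p = 0.00146). ABCA5 (chromosome 17, 69244311 to 69327244, minus strand), a protein of endosomes and lysosomes, had 19.4, 21.97 and 22.6 CPM in control and 27.2, 28.6 and 27.3 CPM in 25(OH)D, again with no overlap (log2FC 0.38, SE 0.0730, adjusted p = 9.98e-04). ABCA12 (chromosome 2, 214931542 to 215138428, minus strand), the carrier of skin barrier lipids in keratinocytes, had 135, 135 and 128 CPM in control and 121, 128 and 115 CPM in 25(OH)D. Its fall was small (log2FC -0.13, SE 0.0473, adjusted p = 0.0457), and the call was lost under 7 of the 15 alternatives, among them leaving out control replicate 1, control replicate 2, 25(OH)D replicate 1 or 25(OH)D replicate 3, with an adjusted p of up to 0.204.

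ABCA2 (log2FC 0.12, adjusted p = 0.156) and ABCA7 (log2FC 0.17, adjusted p = 0.181) did not pass the test and had overlapping groups. ABCA2 passed it without 25(OH)D replicate 3 (adjusted p = 0.0476) and ABCA7 without control replicate 3 (adjusted p = 0.0383). ABCA10, which shares 318 exon bases with ABCA5 on the same strand, had 2, 14 and 6 reads in control and 13, 13 and 27 in 25(OH)D, so its groups overlapped (log2FC 1.39, SE 0.620, adjusted p = 0.103). Without control replicate 2 its log2FC was 2.27 (adjusted p = 0.0390). ABCA1, which hands cholesterol to apolipoprotein A-I, had 0, 0 and 2 reads in control and 4, 4 and 0 in 25(OH)D. ABCA6, ABCA8, ABCA9 and ABCA13 had at most 6 reads in any library. A floor of 3 reads was worth between 0.0720 and 0.0921 CPM and covers counting error only, and no change of these 5 genes was detectable at this depth.

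ABCA4 lies 297 kb from ABCD3, and the genes within 500 kb of the stretch that holds both were listed after their values were seen. Of 24 genes listed there, 12 were tested, and 5 of those rose while 4 fell. The 5 include ABCA4 and ABCD3, whose rises led to the choice of the stretch. Over all genes tested, 17.3% were higher and 16.5% lower. GCLM, the modifier subunit of glutamate-cysteine ligase in glutathione synthesis, rose from 9.58 ± 1.86 to 16.2 ± 0.587 CPM (log2FC 0.75, SE 0.118, adjusted p = 1.77e-04). ARHGAP29, a GTPase-activating protein encoded between ABCA4 and ABCD3, rose from 69.6 to 94.2 CPM (log2FC 0.44, SE 0.0467, adjusted p = 4.73e-06), and BCAR3 rose as well (log2FC 0.34, adjusted p = 9.99e-05). F3, the gene of tissue factor, fell (log2FC -0.64, adjusted p = 0.0284), as did CNN3 (log2FC -0.60, adjusted p = 7.45e-07), DNTTIP2 (log2FC -0.17, adjusted p = 0.00187) and FNBP1L (log2FC -0.098, adjusted p = 0.0410). Genes of the stretch thus moved in both directions.

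**Figure D3:**
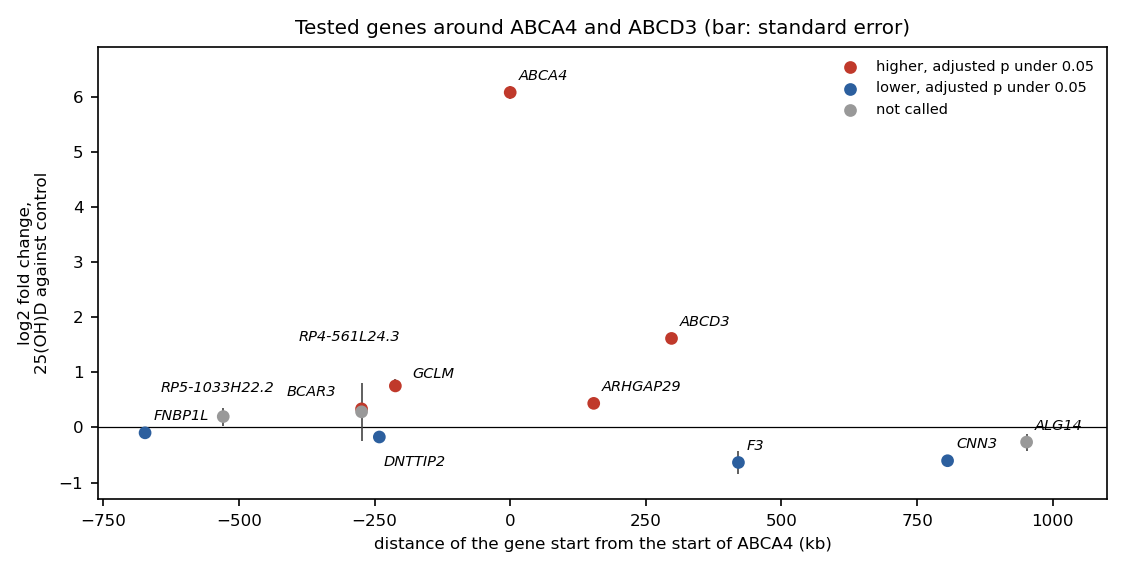
Log2FC of 25(OH)D over control with SE bars for the 12 tested genes around ABCA4 and ABCD3, by distance of the gene start from that of ABCA4 in kb. ABCA4 (6.08) and ABCD3 (1.61) stand highest, GCLM, ARHGAP29 and BCAR3 lie between 0.34 and 0.75, and F3 and CNN3 lie near -0.60.

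In subfamily D, ABCD3 had the largest rise. ABCD3 (chromosome 1, 94418455 to 94518666, plus strand), which brings branched-chain acyl-CoA and bile acid intermediates into peroxisomes, had 44.8, 44.2 and 45.1 CPM in control and 139, 134 and 136 CPM in 25(OH)D. The groups stood well apart, a 3.06-fold rise (log2FC 1.61, SE 0.0445, adjusted p = 2.05e-12). ABCD4, which releases cobalamin from lysosomes and shares 624 of its 8769 exon bases with another gene on the same strand, had 30.3, 32.3 and 32.7 CPM in control and 36.4, 34.5 and 33.4 CPM in 25(OH)D, without overlap, and did not pass the test (log2FC 0.13, SE 0.0626, adjusted p = 0.132).

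In a list of 14 genes of peroxisomes and fatty acid entry, all tested, 9 rose and 1 fell, with a median log2FC of 0.24. Counts in this and the other gene lists stand against 17.3% higher and 16.5% lower over all genes tested. ACSL1, which activates long chain fatty acids, had the smallest p of the list and rose from 226 ± 7.19 to 543 ± 15.8 CPM (log2FC 1.26, SE 0.0391, adjusted p = 7.06e-12). The fatty acid carrier and activating enzyme SLC27A2 (log2FC 1.50, adjusted p = 2.91e-09), the activating enzyme ACSL4 (log2FC 1.70, adjusted p = 2.73e-05) and the peroxisomal oxidase ACOX3 (log2FC 1.96, adjusted p = 6.48e-08) rose further on the log2 scale. EHHADH, a peroxisomal beta-oxidation enzyme, was the gene that fell, with overlapping groups (log2FC -1.33, SE 0.431, adjusted p = 0.0277). Of the peroxisome assembly genes, PEX19 rose (log2FC 0.23, adjusted p = 0.0144). PEX3 (log2FC 0.12, adjusted p = 0.385) and PEX5 (log2FC 0.012, adjusted p = 0.909) did not pass the test. Of 10 tested genes of cobalamin handling, 2 rose and 1 fell (MTRR), shares near those over all genes tested. LMBRD1, the lysosomal partner of ABCD4, rose from 27.5 ± 0.940 to 41.1 ± 2.43 CPM (log2FC 0.58, SE 0.0642, adjusted p = 6.52e-06), and so did MMAB (log2FC 0.37, adjusted p = 8.42e-04).

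Subfamily C held calls in both directions. Of its 11 genes, 5 rose, 2 fell, 3 did not pass the test and 1, the pseudogene ABCC13, did not pass the filter, with at most 2 reads in any library. Of the 10 tested, 50% were higher and 20% lower, against 17.3% and 16.5% of all genes tested, so the share of lower genes was near that background. ABCC3 (chromosome 17, 50634777 to 50692252, plus strand), which exports glucuronides and conjugated bile acids across the basolateral membrane, had 45.2, 42.9 and 48.1 CPM in control and 107, 104 and 105 CPM in 25(OH)D. This was a 2.33-fold rise without overlap (log2FC 1.22, SE 0.0522, adjusted p = 2.60e-10). ABCC1 (chromosome 16, 15949577 to 16143074, plus strand), the multidrug resistance protein that exports glutathione conjugates and leukotrienes, had 23.6, 22.4 and 20.9 CPM in control and 38.1, 43.9 and 43.6 CPM in 25(OH)D. It rose 1.88-fold, again without overlap (log2FC 0.91, SE 0.0732, adjusted p = 2.66e-07).

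ABCC11 (chromosome 16, 48166910 to 48247568, minus strand), the exporter of apocrine glands that sets earwax type, was the most abundant membrane transporter of the family. It had 409, 390.1 and 408 CPM in control and 506, 513 and 495 CPM in 25(OH)D, a rise of 1.25-fold (log2FC 0.33, SE 0.0358, adjusted p = 5.87e-06). Its neighbour ABCC12 (chromosome 16, 48082973 to 48156018, minus strand) lies 10.9 kb away and had 17.7, 17.5 and 19.1 CPM in control and 30.3, 30.7 and 29.6 CPM in 25(OH)D. ABCC12 rose 1.67-fold (log2FC 0.74, SE 0.0673, adjusted p = 9.11e-07), and the groups of both genes stood apart. Per kilobase ABCC12 was far lower than ABCC11, at 2.46 against 56.3 RPKM in control and 3.99 against 68.5 RPKM in 25(OH)D. ABCC11 shares 86 exon bases with an uncharacterised gene on the same strand and 293 with LONP2 on the other strand.

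ABCC4 and ABCC5 fell. Both can export cyclic nucleotides, as can ABCC11, which rose. ABCC5 (chromosome 3, 183919934 to 184018015, minus strand) had 304, 320.1 and 299 CPM in control and 201, 212 and 198 CPM in 25(OH)D. It fell by 33.7% without overlap (log2FC -0.59, SE 0.0417, adjusted p = 6.07e-08). ABCC4 (chromosome 13, 95019829 to 95301446, minus strand), which also exports prostaglandins, was rare, with 98, 60 and 66 reads in control and 14, 14 and 18 in 25(OH)D. Its groups did not overlap and its level was 4.37-fold lower in 25(OH)D (log2FC -2.13, SE 0.302, adjusted p = 7.13e-05), with a log2FC between -2.31 and -1.94 when each library was left out.

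ABCC8 (chromosome 11, 17392885 to 17476845, minus strand), the sulfonylurea receptor of ATP-sensitive potassium channels, was also rare, with 4, 14 and 12 reads in control and 41, 48 and 37 in 25(OH)D. The rise was 4.50-fold (log2FC 2.17, SE 0.426, adjusted p = 0.00113), and its log2FC lay between 1.76 and 2.51 when each library was left out. KCNJ11, the pore subunit that pairs with ABCC8 and the 1 gene of the channel list in the table, went from 7.26 to 7.28 CPM (log2FC 0.0030, adjusted p = 0.987). ABCC2, the canalicular exporter of conjugates, had 45, 48 and 32 reads in control and 43, 63 and 65 in 25(OH)D, and its groups overlapped (log2FC 0.59, adjusted p = 0.114). ABCC6 (log2FC -0.073, adjusted p = 0.625) and ABCC10 (log2FC -0.028, adjusted p = 0.904) did not pass the test, and 14.8% of the 100-base stretches of ABCC6 transcripts occur in other genes, most of all in its pseudogene. Of 7 tested genes of drug conjugation and glutathione synthesis, which make the substrates of such exporters, 2 rose (MGST1 and GCLM) and 1 fell. The gene that fell was UGT1A6, a glucuronosyltransferase, from 16.3 to 7.38 CPM (log2FC -1.15, SE 0.107, adjusted p = 1.13e-06).

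In subfamily B, 5 of 7 genes were tested and 1 was called. ABCB9 (chromosome 12, 122920951 to 122981649, minus strand), a peptide transporter of lysosomes and the most abundant gene of the subfamily, had 169.5, 159 and 171 CPM in control and 175, 178 and 198 CPM in 25(OH)D. Its rise was small (log2FC 0.14, SE 0.0510, adjusted p = 0.0451) and was lost under 6 of the 15 alternatives, among them leaving out control replicate 2 (adjusted p = 0.173) or 25(OH)D replicate 3 (adjusted p = 0.137), with an adjusted p of up to 0.260. Its exons overlap those of 3 genes on the other strand, which share 2752, 1656 and 1590 of its 13291 exon bases. As the strand setting of the counting is not given, its level is uncertain. The mitochondrial transporters ABCB8 and ABCB10 and the porphyrin transporter ABCB6 had log2FC between -0.16 and 0.13, overlapping groups and adjusted p between 0.208 and 0.608. ABCB6 shares 2837 of its 5205 exon bases with ATG9A on the same strand, so its level is uncertain. Of 13 genes of mitochondrial iron-sulfur and heme synthesis 0 rose and 1 fell, the heme enzyme FECH (log2FC -0.25, SE 0.0789, adjusted p = 0.0241). Without control replicate 2, 25(OH)D replicate 1 or 25(OH)D replicate 2 the list held 0 calls, and without 25(OH)D replicate 3 it held 3.

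The drug exporters ABCB1 and ABCG2 were at or near 0, unlike ABCC1. ABCB1, which encodes P-glycoprotein, had 0 reads in each control library and 0, 2 and 3 in 25(OH)D, and ABCG2, the breast cancer resistance protein, had 0 reads in each control library and 0, 0 and 2 in 25(OH)D. The phosphatidylcholine transporter ABCB4 had 6, 5 and 6 reads in control and 4, 7 and 5 in 25(OH)D. No change of these genes was detectable at this depth.

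TAP1 and TAP2, which belong to subfamily B by structure and carry peptides into the endoplasmic reticulum for class I molecules, both rose. TAP1 rose from 14.6 ± 1.93 to 21.1 ± 0.735 CPM (log2FC 0.53, SE 0.0923, adjusted p = 4.10e-04) and TAP2 rose from 38.99 ± 2.05 to 55.9 ± 3.89 CPM (log2FC 0.52, SE 0.0644, adjusted p = 1.99e-05). Of 5 further genes of peptide loading, 4 rose and 0 fell. B2M, the light chain of class I molecules, rose from 207 to 413 CPM (log2FC 0.99, SE 0.0657, adjusted p = 3.05e-08). CFTR, the chloride channel of subfamily C, had at most 7 reads in any library.

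In subfamily G, ABCG1 was the only gene tested. ABCG1 (chromosome 21, 42199689 to 42297244, plus strand), which passes cholesterol to high-density lipoprotein, had 27.9, 25.7 and 26.3 CPM in control and 17.9, 19.2 and 19.9 CPM in 25(OH)D. It fell by 28.7% without overlap (log2FC -0.49, SE 0.0711, adjusted p = 9.11e-05). ABCG4, ABCG5 and ABCG8 had at most 2 reads in any library. ABCA1 and ABCG1 are classical targets of the liver X receptors, and of 10 other targets tested 3 rose and 1 fell (MYLIP), with a median log2FC of 0.044. SCD, the stearoyl-CoA desaturase, rose from 713 ± 23.6 to 1035 ± 13.5 CPM (log2FC 0.54, SE 0.0346, adjusted p = 2.34e-08). Of 8 tested genes of cholesterol handling, 7 rose and 1 fell. SOAT1, which esterifies cholesterol for storage, rose from 12.4 ± 0.532 to 27.3 ± 2.46 CPM (log2FC 1.14, SE 0.0827, adjusted p = 8.29e-08), and SCARB1, a receptor of high-density lipoprotein, fell from 4.61 ± 0.341 to 1.81 ± 0.734 CPM (log2FC -1.34, SE 0.243, adjusted p = 5.89e-04).

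Genes of subfamilies E and F, which act on ribosomes, had small changes. ABCE1 (chromosome 4, 145097932 to 145129179, plus strand), which splits ribosomes after termination, had 73.6, 75.7 and 75.3 CPM in control and 64.9, 61.3 and 60.2 CPM in 25(OH)D. It fell by 16.98% without overlap (log2FC -0.27, SE 0.0493, adjusted p = 6.77e-04). Of its 100-base stretches 3.40% occur in other genes, and its exons overlap those of ANAPC10 and OTUD4 on the other strand. ABCF1 (chromosome 6, 30571376 to 30597179, plus strand), a partner of initiation factor eIF2, had 425, 413 and 456 CPM in control and 490.2, 468 and 504 CPM in 25(OH)D, a small rise without overlap (log2FC 0.18, SE 0.0431, adjusted p = 0.00557) that was lost with limma on log2(RPKM + 1) (adjusted p = 0.0574). ABCF3 (chromosome 3, 184186023 to 184194012, plus strand) had 83.4, 87.6 and 86.9 CPM in control and 102, 97.5 and 87.9 CPM in 25(OH)D, with 25(OH)D replicate 3 next to the control libraries (log2FC 0.16, SE 0.0558, adjusted p = 0.0427). Its call was lost under 10 of the 15 alternatives, among them leaving out any 1 library other than 25(OH)D replicate 3. ABCF2 did not pass the test (log2FC -0.016, adjusted p = 0.838), and 61.3% of its 100-base stretches occur in other genes, so its level is uncertain. Of 11 tested genes of ribosome recycling and initiation, 2 rose and 3 fell. The genes that fell encode the subunits of eIF2, EIF2S1 (log2FC -0.21, adjusted p = 0.00105), EIF2S2 (log2FC -0.35, adjusted p = 5.78e-05) and EIF2S3 (log2FC -0.19, adjusted p = 0.00239). EIF2AK4, a kinase of eIF2, rose from 150.5 to 212 CPM (log2FC 0.49, SE 0.0398, adjusted p = 2.71e-07), and EIF5 rose as well (log2FC 0.17, adjusted p = 0.00479).

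Summed per kilobase, subfamily F took 38.5% of the RPKM of the 42 genes in control, C took 28.4% and A took 13.5%, and in 25(OH)D these shares were 36.5%, 28.1% and 13.6%. Subfamily A summed to 46.2 ± 1.09 RPKM in control and 53.03 ± 1.66 RPKM in 25(OH)D, C to 97.2 ± 0.824 RPKM in control and 109 ± 2.59 RPKM in 25(OH)D, and F to 132 ± 4.60 RPKM in control and 142 ± 1.78 RPKM in 25(OH)D. Subfamily B summed to 28.9 ± 0.682 RPKM in control and 29.5 ± 1.05 RPKM in 25(OH)D, and its libraries overlapped between groups. The family as a whole summed to 343 ± 4.62 RPKM in control and 389 ± 3.37 RPKM in 25(OH)D, and the rises of A, C and F make up only part of that difference. The sum of subfamily D is not reported here. These sums are a description without a test, and their levels follow the few most abundant genes. Their differences between groups also hold rarer genes, as ABCA4 in subfamily A, which went from 0.0727 to 4.76 RPKM.

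**Figure D4:**
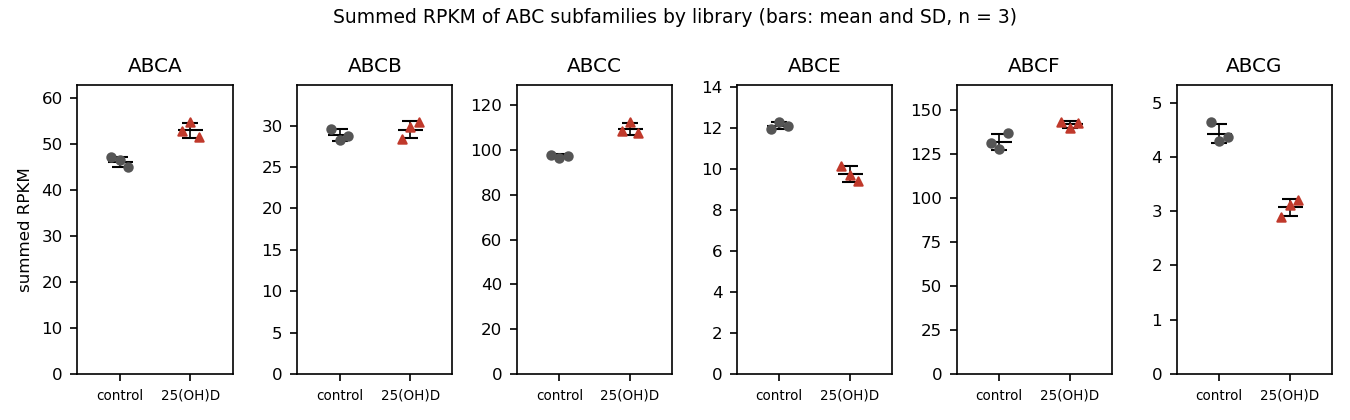
Summed RPKM of subfamilies A, B, C, E, F and G by library, with circles for control, triangles for 25(OH)D and bars for the mean and SD of 3 libraries, each panel with its own axis. Subfamily G averaged 4.43 RPKM in control and 3.07 RPKM in 25(OH)D, and the groups of B overlapped.

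Of 16 nuclear receptors and other factors known to control ABC genes, 14 were in the table and 10 were tested, and 3 of these rose and 2 fell. VDR, the vitamin D receptor, rose from 80.8 ± 0.739 to 133 ± 6.16 CPM (log2FC 0.72, SE 0.0458, adjusted p = 1.94e-08), and its partner RXRA fell from 34.7 ± 2.27 to 26.9 ± 3.39 CPM (log2FC -0.37, SE 0.0863, adjusted p = 0.00429). AHR, the aryl hydrocarbon receptor, rose from 18.6 to 44.6 CPM (log2FC 1.26, SE 0.0656, adjusted p = 2.17e-09). PPARA, a fatty acid receptor that controls peroxisomal genes, rose from 7.14 to 13.2 CPM (log2FC 0.88, SE 0.108, adjusted p = 1.74e-05), while PPARD fell from 131 to 102 CPM (log2FC -0.37, SE 0.0482, adjusted p = 3.36e-05). The liver X receptor genes NR1H2 (log2FC -0.029, adjusted p = 0.755) and NR1H3 (log2FC -0.22, adjusted p = 0.0655) did not pass the test. NR1I2, the pregnane X receptor that controls ABCB1 in liver, had at most 2 reads in any library.

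Of the 17 pairs of ABC genes under 1 Mb apart, 6 had both genes tested and 3 had both called. This count is a description, as 60% of the 30 tested ABC genes and 33.8% of all genes tested were called. ABCA4 and ABCD3 both rose, as did ABCC11 and ABCC12, whereas ABCC5 fell and ABCF3, 168 kb away, rose. The call of ABCF3 was lost under 10 of the 15 alternatives. ABCC1 rose while ABCC6, 5.85 kb away, did not pass the test, and this difference within the pair was not tested.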

How the data were processed

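mRNA was analysed in 6 libraries, 3 of control and 3 of 25(OH)D, grouped by their titles. The authors deposited counts per gene, without normalization, and RPKM, which equal each count divided by gene length and library total (largest relative difference 2.23e-13). The submitters' processing notes name Trimmomatic 0.36, featureCounts, Subread 1.5.1, edgeR 3.12.1 and GRCh38. The aligner and the strand setting of the counting are not given in the sources used here. Reads that a gene shares with an overlapping gene or a near copy may have been split or dropped, so the larger overlaps are given beside the members described.

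In R 4.3.3, counts went into edgeR 4.0.16 with TMM factors and filterByExpr (minimum count of 10). The quasi-likelihood test compared both groups without covariates, and SE is the absolute log2FC over the square root of F. The code was tested on simulated data. All pairs of libraries of a group differed by more than sampling noise, with a chi-square per gene from 4.01 to 12.1. DESeq2 1.42.0, limma 3.58.1 on RPKM, other factors and filters, a replicate block and the omission of libraries served as alternatives. Exon overlaps come from the positions in the count table, and 100-base stretches from GENCODE 29. Tables and plots were made in Python 3.11.15.

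Members and lists were chosen with earlier results of these data known. Full statistics were given for each called member that is reported by name, and for lists the called receptors and the gene with the smallest p were named. Other list genes were named after their values were seen. Of the tested members, 2 are counted in the totals and not reported here by name.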

Additional observations from a re-analysis of the deposited data

How the results depend on the processing

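Of the 18 called members, 14 kept their call and direction under all 15 alternatives, and ABCA12, ABCB9, ABCF1 and ABCF3 lost the call under at least 1. With limma on log2(RPKM + 1), 3 members were higher and 0 lower at the fold limit, and with 0.1 added 3 were higher. The added constant shrinks the log2FC of members with RPKM near or below it, as ABCC4 (0.248 in control, 0.0551 in 25(OH)D). At the fold limit these counts are thus no test of such members. In subfamily B, 0 members were called with upper-quartile factors, library sizes alone and both limma fits. In subfamily F, 1 was called with upper-quartile factors, library sizes alone and the replicate block, and 0 with both limma fits. With each library left out in turn, between 0 and 1 were called in B and between 1 and 2 in F. The iron-sulfur and heme list had 2 calls with upper-quartile factors and library sizes alone, and between 0 and 3 with a library left out. The same-numbered libraries did not deviate together (correlations -0.072, -0.012, -0.046), so the numbers were not taken as pairs. With the number as a block, ABCF3 had an adjusted p of 0.0523 and no other member changed its call. Scaled by TMM, the family summed to 338 CPM per kilobase in control and 395 in 25(OH)D. Of members not called, the log2FC changed sign with a library left out for ABCC6 (between -0.16 and 0.033), ABCC10 (between -0.14 and 0.12) and ABCF2 (between -0.037 and 0.016). The cause of these changes was not tested. Depth limits the 12 members that did not pass the filter.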

Other observations

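Among rows named ABC outside the family's rule, the pseudogene ABCA17P (chromosome 16, 2339150 to 2426699, plus strand), whose span overlaps that of ABCA3 on the other strand, had 14.7, 15.8 and 13.5 CPM in control and 9.90, 9.47 and 9.70 CPM in 25(OH)D. It fell (log2FC -0.60, SE 0.0896, adjusted p = 1.17e-04), where ABCA3 rose. The pseudogene ABCA11P had overlapping groups and did not pass the test (log2FC -0.22, adjusted p = 0.391). ABCC6P1 and ABCC6P2 had at most 2 reads in any library, and the antisense gene ABCC5-AS1 had at most 14. These rows were named after their values were seen.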
